A study of Drosophila melanogaster with 8 samples.

Results

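The shared Dpn peaks at protein-coding genes are the places where 2 independent maps of Deadpan (Dpn) binding met. A peak of the pan-neuroblast (pan-NB) list was counted when it overlapped a peak of the medulla NB list by at least 1 bp and lay within 1 kb of a protein-coding gene of the Release 6 RefSeq annotation. This held for 1875 of the 4282 pan-NB peaks outside the Y chromosome, and 1917 of the 3474 medulla NB peaks (55.2%) overlapped one of them. The peaks were selected on the presence of a called peak in both lists, so the shares of overlap, scores and ranks below describe the chosen peaks and carry no test.

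The pan-NB list compares larval brains that express Dam-Dpn under wor-GAL4, a driver of all larval neuroblasts, with brains that express Dam alone under the same driver. The medulla NB list comes from NanoDam, in which a nanobody fused to Dam recruits the methylase to Dpn-GFP. Dpn-GFP brains were compared there with brains of the w1118 background, which hold the same Dam source under eyR16F10-GAL4 (labelled ey-GAL4) but no tagged protein. All 4 conditions used the third larval instar, GAL80ts to hold back expression until a temperature shift, and 2 replicates each. Each deposited list is a single list named as an average, with no values per replicate, so no replicate error could be given. The Dpn-Dam line was made from a dpn open reading frame and Dpn-GFP from a recombineered BAC, whereas eyR16F10-GAL4 is also active in medulla neurons. Technique, driver and the origin of the Dpn protein differ together between the lists and cannot be told apart.

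Dpn is a bHLH repressor of the Hairy/E(spl) family and a standard marker of neuroblasts, the neural stem cells of the fly. Such factors recruit the corepressor Groucho and act downstream of Notch in neuroblasts to hold back differentiation. In the medulla of the optic lobe, neuroblasts express a sequence of temporal transcription factors (tTFs) as they age, which gives their progeny different fates. DamID records contact as adenine methylation at GATC sites, so a peak is built of GATC fragments and gives no measure of transcription.

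Shared peaks at protein-coding genes were wide and high-scoring. They made up 56.4% of the 3327 pan-NB peaks at protein-coding genes, beside 50.6% of the 955 pan-NB peaks with no protein-coding gene within 1 kb and 55.1% of all pan-NB peaks. Their median width was 1521 bp (quartiles 957 and 2233 bp), against 1323.5 bp (790.75 and 2037.25 bp) for the 1452 pan-NB only peaks at protein-coding genes. The peak score, the authors' own value that ranks peaks within 1 list, had a median of 4.59 in shared peaks (quartiles 3.43 and 5.95) and 2.93 in pan-NB only peaks at genes (2.29 and 4.09). The 483 shared peaks away from protein-coding genes had a median score of 5.73, above that of the shared peaks at genes.

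Where a peak lay relative to its gene differed little between shared and pan-NB only peaks. Of the shared peaks 1754 (93.5%) overlapped a protein-coding gene, and 1107 (59.0%) lay wholly inside one, against 94.0% and 59.1% of pan-NB only peaks at genes. An annotated end of a protein-coding gene lay within 38.5% of shared peaks and 39.0% of pan-NB only peaks. Because wide peaks reach more gene ends, this was also read by width. Among peaks of up to 862 bp, an end lay within 21.4% of 407 shared and 16.0% of 425 pan-NB only peaks, whereas among peaks of at least 2159 bp the shares were 43.6% of 512 and 52.8% of 320. The narrowest shared peaks thus reached gene ends more often than pan-NB only peaks of similar width, and those of the 3 wider classes less often. A single protein-coding gene lay near 1081 shared peaks, a pair of genes near 554 and at least 3 near 240, so a peak at several genes cannot be assigned to 1 of them. A lncRNA gene also lay within 1 kb of 10.8% of shared peaks and of 7.09% of pan-NB only peaks at genes.

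Both lists placed most shared peaks over the same stretch of DNA. The 1875 peaks covered 3215694 bp, of which 2348934 bp (73.0%) also lay in a medulla NB peak. The median shared peak was covered over 88.5% of its width (quartiles 56.8% and 100%), and 715 peaks were covered wholly, whereas 364 (19.4%) were covered over less than 50% of their width. Among 1746 pairs of 1 pan-NB and 1 medulla NB peak, 316 had the same start and the same end and 727 shared exactly 1 end. In 521 pairs the medulla NB peak lay inside the pan-NB peak, in 380 the reverse held, and 529 pairs were staggered. The 316 peaks with equal ends had a median pan-NB score of 4.94 and a median width of 1393.5 bp, against 4.50 and 1548 bp for the other shared peaks. The highest-scoring of them was the peak at CG34057 and mat on 3L (898866 to 902204). Others lay at CG4161 on 2L (15435527 to 15436200), at heph, which encodes a polypyrimidine tract binding protein, on 3R (31949996 to 31951448), and at fng, a modifier of Notch, on 3L (20948781 to 20949394).

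**Figure D1:**
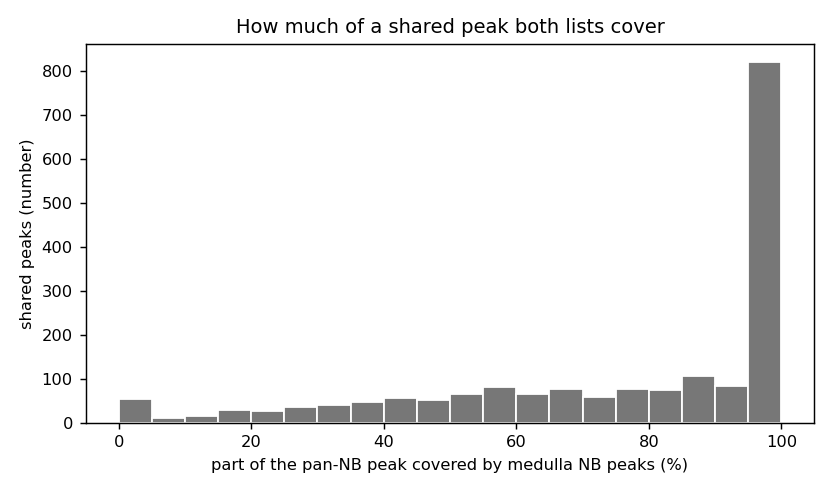
Number of shared peaks (vertical axis) by the part of the pan-NB peak that medulla NB peaks cover (horizontal axis, %, in steps of 5). The last bar is the tallest and includes the 715 peaks covered wholly, and the first bar includes the 48 that only touch.

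A small set of shared peaks only touched. In 48 peaks the overlap was exactly 1 bp, the next overlap was 6 bp (at bi on X) and only 9 peaks had 2 to 49 bp. Since neighbouring GATC fragments meet at a common base, an overlap of 1 bp is that of fragments that abut, with no fragment in common. Both shared peaks of l(1)sc, a proneural bHLH gene, were of this kind. Its pan-NB peaks ran from 407141 to 408838 and from 409282 to 409610 on X, and the medulla NB peak from 408838 to 409282 filled the gap between them. The only shared peak of polo, the mitotic kinase gene, and that of scrt, a Snail family gene, touched likewise, and so did 1 of 7 at E2f1 and 1 of 5 at hth. With an overlap of at least 2 bp the set held 1827 peaks at 2198 genes, without l(1)sc, polo and scrt.

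At the other edges of the rule, shared peaks just inside 1 kb of a gene lay 977 bp from eya (score 6.10), 997 bp from CG1142 (4.28) and 998 bp from Ugt37B1 (2.66). Shared peaks just outside it lay 1020 bp from CG1239 (8.18), 1049 bp from t-Grip91 (7.45) and 1058 bp from Drl-2 (4.60). Among pan-NB only peaks at genes, the nearest to a medulla NB peak lay 5 bp away at CG13321, 6 bp away at Nhe1 and 12 bp away at CG10570, and 79 lay within 500 bp of one.

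The share of pan-NB peaks found in the medulla NB list rose along the score. In the lowest decile of peaks at protein-coding genes, with scores from 1.21 to 2.14, 21.9% of 333 were shared, and in the highest decile, from 6.63 to 9.89, 88.9% of 332 were. Away from protein-coding genes the deciles ran from 17.7% of 96 peaks to 84.2% of 95. The share was higher at genes than elsewhere in 8 of the 10 deciles, but the deciles of these sets cover different scores.

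**Figure D2:**
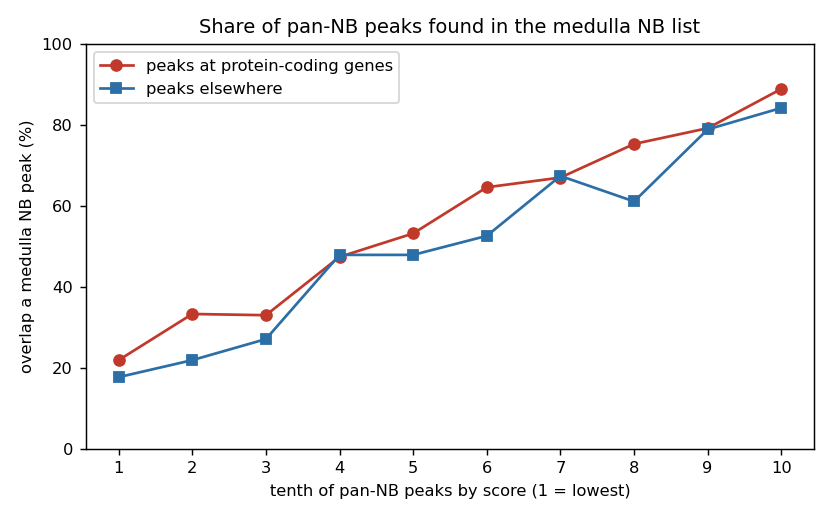
Percentage of pan-NB peaks also present in the medulla NB list (vertical axis) by decile of the pan-NB score (horizontal axis, 1 is the lowest decile), for peaks at protein-coding genes (circles) and elsewhere (squares). The share climbs to 88.9% at genes and 84.2% elsewhere in the highest decile.

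Shared peaks kept much of their rank order between the lists. Over the 1875 peaks, ranks in the pan-NB list and the best rank of the overlapping medulla NB peak had a Spearman correlation of 0.67. This describes the lists, since the peaks were chosen by their overlap and some have a partner in common. Of the shared peaks 76 had 2 partners, of which the better rank was taken. Conversely, 32 medulla NB peaks overlapped 2 shared peaks and 1 overlapped 3. Of the 250 shared peaks in the top decile of the pan-NB list, 124 (49.6%) were also in the top decile of the medulla NB list, which is 57.4% of the 216 shared peaks in that medulla NB decile.

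Some of the highest-scoring shared peaks ranked low in the medulla NB list. The first lay at plum, an immunoglobulin superfamily gene, with pan-NB rank 1 and medulla NB rank 101. The peak of CG34057 and mat had ranks 2 and 3, and that at sbb, which encodes a transcriptional corepressor, ranks 4 and 4. At these places both lists were near their maximum. The peak at gcm, Mtpalpha and CG31709 on 2L (9577301 to 9578928) had pan-NB rank 5 and medulla NB rank 949. The peak at vnd and spdi on X (586947 to 588295) had ranks 13 and 2062. vnd is an NK-2 homeobox gene of the ventral nerve cord. The other peaks among the first 10 were at smal (ranks 14 and 13), hng3 (20 and 8), hth (21 and 611), Ptp61F (22 and 427), and CG5346 with CG33099 (23 and 63). Ordered by the medulla NB list, the first 10 also included pum (pan-NB rank 588, medulla NB rank 5), Ets65A (42 and 7), dpn (723 and 9), E(spl)mbeta-HLH (99 and 11) and Eip75B (326 and 14).

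The peaks whose ranks, as a percentage of each list, differed most in each direction are given here, 5 for each. The differences in the first direction were larger, so these are not the 10 largest in all. At svp, an orphan nuclear receptor gene, a peak on 3R from 12292459 to 12293009 had pan-NB rank 187, whereas the medulla NB peak over it had rank 3174 of 3474. Peaks at Ten-m (ranks 204 and 3026), siz (229 and 2991), CG14441 (669 and 3229) and heca (714 and 3357) differed in the same direction, and the peak at heca overlapped by 1 bp only. In the opposite direction, a pan-NB peak of 8899 bp at CG32176 and CG18265 ranked 3748, and the medulla NB peak over it, 1401 bp wide, ranked 611. Those at CG42663 (ranks 3338 and 373), CG42238 (3891 and 943), SIDL with CG12241 (4019 and 1090) and scb, an integrin gene (3286 and 526), also ranked higher in the medulla NB list. The 5 peaks of the first kind were 400 to 964 bp wide and lay over medulla NB peaks of 1590 to 2620 bp. The 5 of the second kind were 1034 to 8899 bp wide, and their best-ranked medulla NB partners measured 281 to 1401 bp. The peak at CG42238 overlapped 2 medulla NB peaks over 2898 bp, so its other partner was wider than the best-ranked one of 601 bp. In each of the 10 pairs with the best-ranked partner the wider of both peaks had the lower rank. The part of width in these differences was not tested.

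**Figure D3:**
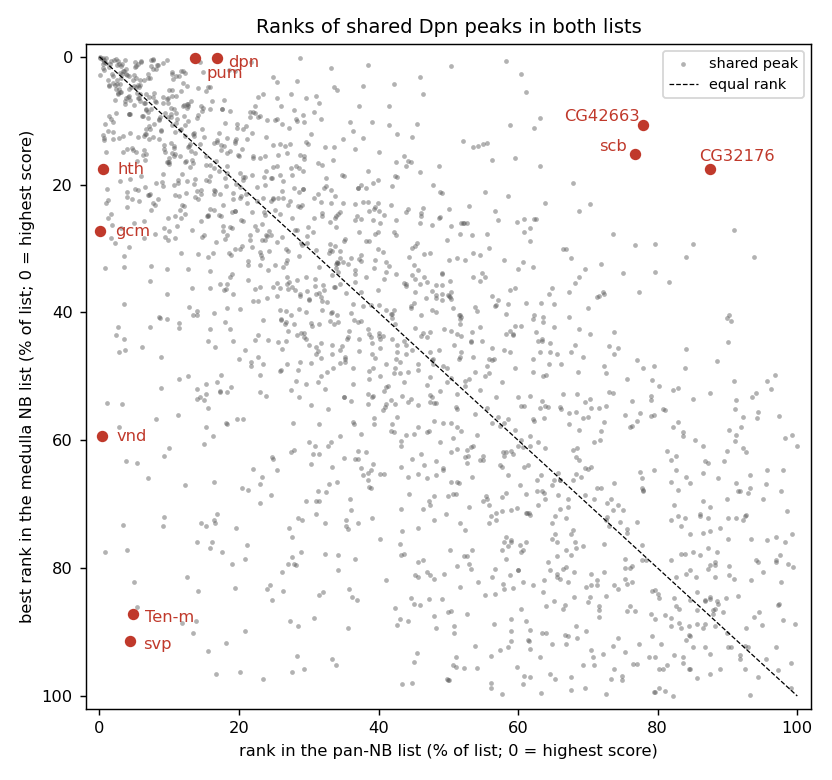
Each point is 1 of 1875 shared peaks, placed by its rank in the pan-NB list (horizontal axis) and by the best rank of its medulla NB partner (vertical axis), both in % of the list with the highest scores at 0 and the vertical axis running downward. Named points lie far from the line of equal rank, such as svp (4.37% and 91.4%) and CG32176 (87.5% and 17.6%).

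Width set some peaks apart. The widest shared peak, 10274 bp on 2L from 17720935 to 17731208 at CadN, which encodes N-cadherin, had pan-NB rank 4164 and was covered over 2106 bp. The peak at kis, a chromatin remodeller gene, was 7761 bp wide and covered wholly by a medulla NB peak of 7947 bp. At numb, a pan-NB peak of 7062 bp was covered over 567 bp by 2 medulla NB peaks, of which the higher-scoring had rank 49. Wide pan-NB peaks therefore included both long stretches found in both lists and long stretches with a short common part.

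The shared peaks lay within 1 kb of 2245 of 13922 protein-coding genes (16.1%). Any pan-NB peak lay near 26.7% of these genes and any medulla NB peak near 23.1%. Of the 2294 genes with a peak in both lists, 2159 (94.1%) had a shared peak. An overlap of 1 bp at 1 peak was enough for this count, and other peaks of the gene may be in 1 list only. Peaks near the same gene also lie close together, and no share for comparison was computed. At 135 genes both lists had a peak and no shared one. Among these were klu, a zinc finger gene of neuroblasts, with 2 pan-NB and 1 medulla NB peaks, the optic lobe gene so (4 and 1) and the FGF ligand gene bnl (4 and 1). Conversely, 86 genes had a shared peak whose medulla NB partner lay beyond 1 kb of the gene. Genes with a shared peak were long, with a median of 4286 bp against 2163 bp for all protein-coding genes. The share with a shared peak was 7.95% among genes of up to 1000 bp and 38.5% among the 663 genes longer than 30000 bp. The gene lists below are given with this in view. Their counts of genes are to be read beside the 16.1% of all protein-coding genes. Genes known only by a CG number had a shared peak in 10.3% of 6097 cases and other genes in 20.7% of 7825, with median lengths of 1611 and 2815 bp.

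Genes on X and on chromosome 4 were reached more often than genes of the large autosomes. On X 452 of 2197 protein-coding genes (20.6%) had a shared peak and on chromosome 4 it was 22 of 80 (27.5%), against 12.4% on 2L, 16.2% on 2R, 16.5% on 3L and 15.6% on 3R. The share of pan-NB peaks at genes that were shared had a similar order, with 73.2% on chromosome 4 and 61.8% on X, and 52.6% to 57.0% on the other arms. Shared peaks also lay beside each other. The next pan-NB peak along the arm was shared for 61.0% of shared peaks at genes and for 49.2% of pan-NB only peaks at genes.

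Most genes had 1 shared peak (1830 genes), while 272 had 2, 77 had 3, 28 had 4 and 38 had 5 or more. jing, a zinc finger gene, had 16 of its 20 pan-NB peaks shared, 9 of them covered wholly. Cph, which encodes a zinc finger temporal factor of neuroblasts, had 13 of 16. Mur2B had 12 of 14 and its neighbour br, which encodes the Broad zinc finger factors of the ecdysone response, 10 of 12, but the genes lie so close that they have peaks in common. CenG1A (9 of 10), CG32816 (9 of 15), tara (8 of 8), E2f1 (7 of 8), the T-box gene bi (7 of 8) and CG1677 (7 of 8) followed. Among the 38 genes hth stood apart with 5 of 23 shared, and at every other one at least 50% of the pan-NB peaks were shared.

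Among the 82 genes with 5 or more pan-NB peaks, every pan-NB peak was shared at 12 and none at 3. The 12 included tara (8 peaks), olf413 and CG43658 (6 each), and, with 5 each, robo2, a Slit receptor gene, erm, numb, CycE, the zinc finger genes chn and dati, tna, the Wnt receptor gene fz2 and the pair-rule gene opa. At robo2, numb, chn and dati the medulla NB list had 5 peaks as well and none of its own. The 3 genes without a shared peak were ush, which encodes a cofactor of GATA factors, with 7 pan-NB peaks, the homeobox gene HGTX with 5 and the Hox gene Ubx with 8. No medulla NB peak lay within 1 kb of these 3 genes.

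**Figure D4:**
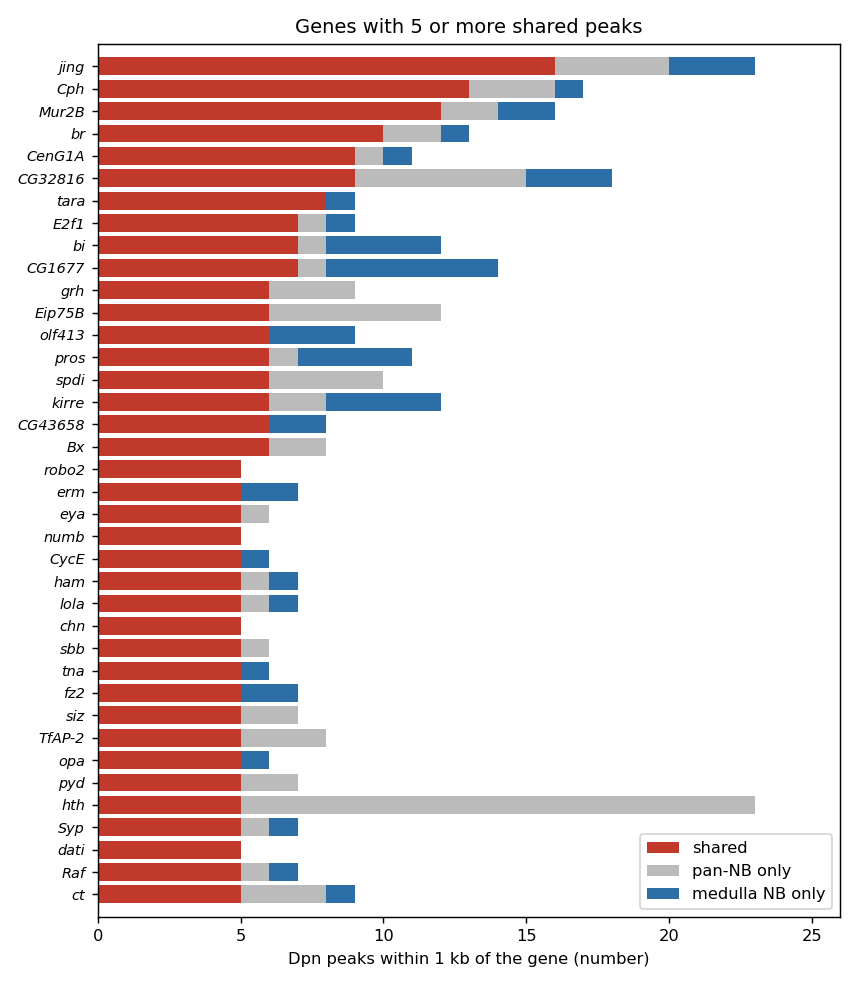
Number of Dpn peaks within 1 kb of the 38 genes with 5 or more shared peaks (horizontal axis), divided into shared, pan-NB only and medulla NB only peaks. jing leads with 16 shared peaks, and hth stands apart with 18 pan-NB only peaks.

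Joined over gaps of up to 5 kb, the 1875 peaks formed 1424 groups, of which 1119 held a single peak and 13 held 5 or more. The largest was at tara on 3R, with 8 peaks from 16230069 to 16257929 that covered 17106 bp, 12114 bp of it in both lists. A group of 7 lay within jing on 2R (6570728 to 6597989), and groups of 6 lay at CenG1A on 2L, at Mur2B and br on X, and in the E(spl) complex on 3R (25995978 to 26010375). At eya, a coactivator of eye and optic lobe development, 5 peaks covered 5995 bp and every base of them lay in a medulla NB peak. The same held for 7127 bp in 5 peaks at ph-p, Pgd and D2hgdh on X, where ph-p encodes a Polycomb group protein.

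All 15 tTF genes had a shared peak, beside 16.1% of all protein-coding genes. By peaks the lists differed. Of the pan-NB peaks, 8 of 26 (30.8%) were shared at the early genes, 26 of 28 (92.9%) at the mid genes and 4 of 5 (80%) at the late genes. Over all pan-NB peaks at genes the share was 56.4%. At the early genes, hth alone had 18 pan-NB only peaks. Of the 8 shared peaks at the early genes hth, SoxN and dmrt99B and of the 4 at the late genes tll and gcm, none was covered wholly, whereas 12 of the 26 at the mid genes were, beside 38.1% of all shared peaks. These counts rest on few peaks, and on the overlap that chose them. At hth, the homeodomain gene of the youngest medulla neuroblasts, the shared peaks had pan-NB ranks 21, 24, 705, 842 and 1525. The highest ran from 10556871 to 10559531 on 3R, and its last 1860 bp lay in a medulla NB peak. The peak from 10570917 to 10572366 had the highest medulla NB rank at hth, 42. SoxN, a Sox gene, had both its pan-NB peaks, of 3273 and 3196 bp, over medulla NB peaks of 1755 and 2607 bp. The single shared peak of dmrt99B (rank 2807) had 594 of its 1157 bp in common.

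Among the mid tTFs, opa had all its pan-NB peaks shared. These 5 peaks from 4852733 to 4864506 on 3R each had 1 partner, with pan-NB ranks from 533 to 1571 and medulla NB ranks from 352 to 1223. One pair had equal ends (4852733 to 4853826) and the smallest common part was 573 bp. erm, a zinc finger gene, also had 5, of which the peak from 1962083 to 1963255 on 2L was the same in both lists. ey, the Pax6 gene, had 4 on chromosome 4. Its highest, at rank 330, was 264 bp wide and lay in a medulla NB peak of 473 bp with rank 17. In the fourth, 1788 bp wide, only 316 bp were common. The 3 shared peaks at scro, an NK-2 gene, had low ranks (2023, 2552 and 2596) but common parts of 1263, 856 and 1723 bp. At hbn, a homeobox gene, pan-NB peaks of 1872 and 1664 bp held medulla NB peaks of 231 and 276 bp, whereas in the third pair the pan-NB peak measured 768 bp and the medulla NB peak 807 bp. D, a Sox gene, had a common part of 477 bp in a pan-NB peak of 2255 bp, and the forkhead gene slp1 had 711 and 964 bp in peaks of 859 and 964 bp. slp2, B-H1 and B-H2 had 1 shared peak each, with common parts of 1635, 1045 and 2927 bp.

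The late genes each had a pair of shared peaks. tll, an orphan nuclear receptor gene, had a pan-NB peak of 1724 bp (rank 982) with 239 bp in common and one of 2378 bp (rank 891) with 1640 bp in common. gcm, the glial switch gene, had 1531 of 1628 bp and 334 of 422 bp in common.

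Of the genes in the neuroblast identity list 14 of 15 had a shared peak, against 16.1% of all protein-coding genes. With at least 2 bp of overlap it was 13, without scrt, against 15.8%. Of the 43 pan-NB peaks at these genes 31 (72.1%) were shared, beside 56.4% of all pan-NB peaks at genes. The list also holds nerfin-1, with 2 shared peaks, whose product the paper describes as maintaining neuronal differentiation. nerfin-1 is counted again below among the genes that guard neuron fate. pros had 6 and brat 4 of the shared peaks, and both are also in the asymmetric division list. Of these 31 peaks 13 were covered wholly, a share near the 38.1% of all shared peaks. The 5 genes used as neuroblast markers, dpn, wor, ase, mira and insc, all had a shared peak. The shared peaks of ase also lay near CG32816, those of mira near Hs6st and that of insc near sktl. Those peaks cannot be assigned to the marker gene, whereas the shared peaks of dpn and wor lay near no other protein-coding gene. wor, a Snail family gene, had a peak on 2L from 15425727 to 15427427 with ranks 30 and 28, and a second one (15424574 to 15425463) with equal ends in both lists. insc, which encodes a spindle orientation protein, had ranks 38 and 619. ase, a proneural gene specific to neuroblasts, had 949 and 509 bp in common at pan-NB ranks 428 and 935. wor stood high in both lists, insc lower in the medulla NB list and ase higher there, at best rank 181. Where a gene has several shared peaks, its best pan-NB rank and its best medulla NB rank may belong to different peaks.

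At dpn itself the shared peak ran from 8231528 to 8234047 on 2R, with pan-NB rank 723 and medulla NB rank 9. Added dpn DNA in the Dpn lines and binding at dpn cannot be told apart here. mira, which encodes the adaptor that carries fate determinants, had 2 shared peaks, with best ranks 614 and 27. pros, the homeodomain determinant, had 6 of 7 shared, with a pan-NB rank of 107 at the highest, and brat had 4 of 4. grh, a late neuroblast temporal gene, had 6 of 9, with ranks from 48 to 2409. klu, the only gene of the list without a shared peak by the 1 bp rule, had pan-NB peaks and a medulla NB peak at different places. Of 17 genes of asymmetric division and polarity, 7 had a shared peak, or 6 with at least 2 bp of overlap. The shares over all protein-coding genes were 16.1% and 15.8%. The 7 genes were insc, pros, numb, brat, mira, baz and polo. The genes pon, par-6, aPKC, l(2)gl, dlg1, scrib, pins, mud, aurA and stau had none. Of those with a shared peak insc, pros, brat and mira also belong to the neuroblast identity list.

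In the Notch pathway, 7 of 13 genes had a shared peak, beside 16.1% of all protein-coding genes. Of the 25 pan-NB peaks at the genes of this list 17 (68.0%) were shared, beside 56.4% of all pan-NB peaks at genes. Of the 17 shared peaks 12 were covered wholly, beside 38.1% of all shared peaks. N, the receptor gene, had 3 on X, of which the pairs from 3134874 to 3136003 and from 3161112 to 3162198 had equal ends, with pan-NB ranks 184 and 282. All 3 shared peaks at fng had equal ends too. neur, the ligand ubiquitin ligase gene, had 4 of 6 pan-NB peaks shared, with best ranks 83 and 89. The ligand gene Ser, the coactivator gene mam, kuz and Hey followed, and Su(H), H, mib1, Psn, Nct and aph-1 had none.

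Of the 15 genes of the E(spl) complex and the Bearded family, which Notch activates, 9 had a shared peak within 1 kb. The 10 shared peaks lay mainly beside these short genes, since with peaks that overlap the gene itself only 3 genes (20.0%) were left. Over all protein-coding genes the share was 16.1% within 1 kb and 12.4% with peaks that overlap the gene. The highest of the 10 peaks ran from 25999064 to 25999782 on 3R near E(spl)mdelta-HLH and E(spl)mgamma-HLH, with ranks 27 and 18. E(spl)mbeta-HLH had ranks 99 and 11. At E(spl)m5-HLH the pan-NB rank was 2587 and the medulla NB rank 92, with 575 of its 590 bp in common. At E(spl)m3-HLH only 70 bp were common. Brd, Tom, Ocho and BobA, which lie outside the complex, had none. Of 10 proneural bHLH and related HLH genes, 5 had a shared peak, or 4 with at least 2 bp of overlap. The shares over all protein-coding genes were 16.1% and 15.8%. Among the 5 were tap, with 3 shared peaks, and the HLH gene emc, but not ac, sc, da, amos or cato.

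Cell cycle genes were reached in 16 of 30 cases, or 15 with at least 2 bp of overlap, beside 16.1% and 15.8% of all protein-coding genes. By pan-NB rank the first were fzr (36), which encodes an activator of the anaphase-promoting complex, dap (119), a CDK inhibitor gene, CycB (163), stg (229), the Cdc25 gene, E2f1 (254) and CycA (306). In CycA the peak had equal ends in both lists (11831949 to 11833052 on 3L). CycE, the G1/S cyclin gene, had 5 shared peaks on 2L with common parts of 1017, 1504, 1509, 861 and 1674 bp. E2f1 had 7, of which the peak from 21661817 to 21662090 on 3R was the same in both lists. Several of these regulate entry into S phase or mitosis. Orc1, Orc2 and Myt1 had a pan-NB peak only, Cdk1 and aurA a medulla NB peak only, and Mcm5, PCNA and geminin had neither.

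Temporal genes of larval neuroblasts had a shared peak in 11 of 14 cases. Of their 65 pan-NB peaks 43 (66.2%) were shared, and 10 of the 14 genes are longer than 30000 bp. br had 10 shared peaks, with pan-NB ranks from 600 to 2979. Syp and Imp, whose RNA-binding proteins form opposing gradients over larval life, had 5 of 6 and 4 of 7. Syp ranked 377 and 307 at its best in the pan-NB and medulla NB lists, and Imp 153 and 1141. lin-28 had a single peak with ranks 254 and 23. chinmo, a BTB zinc finger gene, had 4 of 5, cas 2 and svp 4 of 10. hb had no peak in either list, and Kr and Eip93F had a pan-NB peak only. All 8 genes of the type II lineages had a shared peak, beside 16.1% of all protein-coding genes. Among them were ham, a PR domain gene, with 5 of 6 and best ranks 59 and 153, and the zinc finger gene Sp1 with ranks 79 and 569 at its best. Of these genes erm, opa and tll were already counted among the tTFs.

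Genes of medulla neuron fate had a shared peak in 10 of 13 cases, but only 27 of their 51 pan-NB peaks (52.9%) were shared, close to the 56.4% of all pan-NB peaks at genes. Lim3, a LIM homeobox gene, had 3 shared peaks with best ranks 163 and 66. ct, a homeobox gene, had 5 of 8 and run had none of 4. In the optic lobe position list, 6 of 9 genes had one. Optix, a homeobox gene, had 3, at best ranks 1384 and 492. dpp, wg and hh had none. Among the 7 genes that guard neuron fate, lola had 5 of 6 shared, 1 of them by 1 bp, with best ranks 93 and 154. ttk, nerfin-1 and psq had shared peaks too, whereas mdlc, CtBP and gro did not. The 8 Hox genes all had a pan-NB peak, but only Antp and abd-A had a shared one, and 2 of 32 pan-NB peaks (6.25%) were shared.

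Lists of long genes also had high shares. RNA-binding protein genes had a shared peak in 10 of 14 cases and axon guidance genes in 12 of 16, and 12 and 11 of these genes are longer than 30000 bp, a length at which 38.5% of all protein-coding genes had one. By pan-NB rank the RNA-binding list was led by fne (83, best medulla NB rank 449), msi (127 and 149), brat (147 and 76) and Imp, and the axon guidance list by unc-5, a Netrin receptor gene (38 and 36), Ten-m (204 and 1913), Dscam1 (223 and 162) and robo2 (272 and 901). Polycomb and Trithorax genes had a shared peak in 8 of 14 cases, beside 16.1% of all protein-coding genes, with ph-p and osa at 3 each. E(z), esc, Sce, Su(z)12, ash1 and brm had none.

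Lists of other cell types ranged widely. Of 15 neuronal function genes 5 (33.3%) had a shared peak, beside 16.1% of all protein-coding genes. Their list had a median gene length of 26844 bp, and 32.2% of all genes longer than 10000 and up to 30000 bp had one. At elav, an RNA-binding protein gene of neurons, the best ranks were 337 and 197, while brp, Syt1, para and VGlut had no shared peak. Of 11 glial genes 6 had one (gcm, gcm2, pnt, Eaat1, loco and nrv2), a share like that of the Notch pathway and cell cycle lists. Of the marker genes of other cell types, 2 of 4 for neurons (elav and nSyb), 0 of 4 for glia (repo, moody, wrapper and alrm), 2 of 3 for muscle (Mef2 and Act57B), 0 of 3 for fat body and 1 of 2 for the germ line (bam) had a shared peak. The peak at bam, with pan-NB rank 3019, was also that of the ribosomal protein gene RpS27. That at nSyb had pan-NB rank 4096 of 4282 and also lay near Mettl2, Bgb and alphaCOP. Neither peak can be assigned to the marker gene, and the shared peaks of elav also lay near arg. Of 11 muscle genes 3 (27.3%) had a shared peak, how, Act57B and Mef2, in a list with a median gene length of 22201 bp. Of 7 germ line genes only bam had one (14.3%), below the 16.1% of all genes. No gene of the 12 in the fat body and haemolymph list had a peak in either list. Of 88 ribosomal protein genes, 22 (25%) had a shared peak, with a median gene length of 1325.5 bp. They had pan-NB peaks in 43 cases, and 23 of their 47 pan-NB peaks (48.9%) were shared, below the 56.4% over all genes. RpL4 had the highest of them, with a score of 7.68. When each list was limited to its higher-scoring 50%, 6 ribosomal protein genes (6.82%) had a shared peak, beside 6.72% of all genes.

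**Figure D5:**
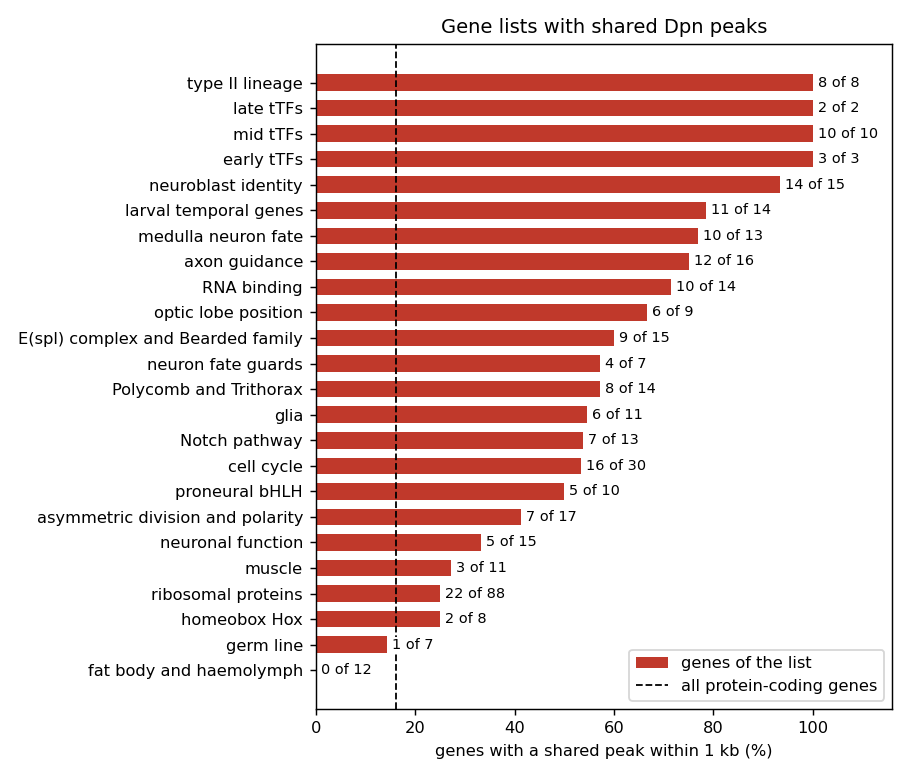
Share of the genes of each of 24 lists that had a shared peak within 1 kb (horizontal axis, %), with the count beside each bar and the 16.1% of all protein-coding genes as a dashed line. Lists of tTFs, type II lineage and neuroblast identity genes stand at the top, and fat body and haemolymph genes at 0%. Some genes are in more than 1 list, so the bars are not independent.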

How the data were processed

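The study compared 4 conditions with 2 replicates each. Per the methods of the study, the authors ran damidseq_pipeline with its defaults, averaged replicates into a final profile, and called peaks replicate by replicate with find_peaks (min-quant 0.8, FDR below 0.01). The deposited lists are 1 per experiment and named as averages, and how the replicates entered them is not stated. The build and tool versions were not given in the sources used here. Each deposited list gives positions, a score per peak with no stated scale, and an FDR, so scores were compared as ranks within a list. No reads were used here and the depth behind a peak is unknown. Of the 4289 pan-NB peaks deposited, 7 on the Y chromosome were left out.

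Genes were taken from RefSeq, Release 6 (13922 protein-coding genes on the 6 arms). Gene positions drawn in the study's browser views fit that release. The table gives no strand, so gene ends are annotated ends of either kind. No genome sequence was used, and the planned counts of sequence motifs and of gene starts were not run. Overlap and distance calls matched the drawn ones when tested on simulated data. Members and the 24 gene lists were chosen with earlier results of these data known, and 5 list names were not matched and are not analysed here. Named genes are those at the 10 highest-scoring shared peaks, at the 5 widest, at the peaks whose ranks differ most, in the largest groups and around the thresholds, the genes with most shared peaks or with 5 or more pan-NB peaks all shared, all tTFs, and up to 4 leading genes and few missing ones of each other list. Genes named beyond that were chosen after their values were seen. Scripts ran in Python 3.11.15 with pandas 2.3.3, numpy 2.4.6, matplotlib 3.10.9 and scipy 1.17.1.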

Additional observations from a re-analysis of the deposited data

How the results depend on the processing

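The number of shared peaks at protein-coding genes stayed within 1.5 times its value of 1875 in 6 of 7 alternatives, and fell to 906 with the higher-scoring 50% of each list. Genes with a shared peak numbered 3788 at a distance of 5 kb, 1475 with an FDR below 0.001 in both lists and 936 with the higher-scoring 50%. Their share of all protein-coding genes was then 27.2%, 10.6% and 6.72%. The share of pan-NB peaks at genes that were shared was 45.4% when 50% of the peak had to be covered, 52.0% with an FDR below 0.001 and 58.4% with the higher-scoring 50%. Equal ends in both lists were found for 20.9% and 21.9% of peaks with 50% coverage and with the higher-scoring 50%, against 16.9%.

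Of 168 values of gene lists 159 stayed within the exact 95% interval of the value given above. The others were the E(spl) and Bearded list (20.0% with peaks that overlap the gene, 86.7% at 5 kb), the ribosomal proteins (15.9% with peaks that overlap the gene, 38.6% at 5 kb, 11.4% with an FDR below 0.001, 6.82% with the higher-scoring 50%), neuroblast identity (100% at 5 kb), and the Hox and germ line lists (0% with the higher-scoring 50%). The interval treats the genes of a list as independent draws, whereas the alternatives use the same chosen genes and the same peaks. It is thus only a fixed yardstick, and a value within it is no measure of stability. For lists of few genes the interval is also wide. Over all protein-coding genes the share was 12.4% with peaks that overlap the gene and 27.2% at 5 kb. It was 10.6% with an FDR below 0.001 and 6.72% with the higher-scoring 50%. With peaks that overlap the gene, the late tTFs fell from 100% to 50% and the early tTFs to 66.7%. The mid tTFs fell to 80% with the higher-scoring 50%. All 3 values were still within the interval. Overlap of at least 2 bp was chosen after the data were seen. No paired analysis was possible because each list is named as an average and holds no values per replicate, and leaving out a replicate could not be run for the same reason. The alternatives for gene starts, sequence motifs and promoters were not run, since strand and sequence were not used here.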
